A study of Homo sapiens with 8 samples.

Results

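The genes described here encode collagen chains and were taken from the count and FPKM tables by symbol alone (COL, a number, A and a number, with antisense genes and pseudogenes left out). The rule found 44 of 61552 genes, and 26 of the 44 had enough reads to be tested. Messenger RNA came from 2 human breast cancer lines in culture. MDA-MB-231, the parental line, is triple-negative, and MDA231-LM2 (LM2 below) is a derivative of it that was selected for growth in the lung. The controls carried a control shRNA and have the genotype WT, and the knockdown groups carried a shRNA against TAF7 (shTAF7). TAF7 is a subunit of TFIID, the complex that helps RNA polymerase II start transcription at promoters. All 4 groups held 2 libraries each, numbered 2 and 3, and all cells grew in DMEM with fetal bovine serum. The knockdown rests on 1 hairpin, and the labels do not say whether a line is a clone or whether the 2 libraries of a group came from different cultures. The p-values therefore reflect only the spread between these libraries, which may be technical. The study asked which genes TAF7 regulates.

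Collagens are proteins of the extracellular matrix in which 3 chains wind into a triple helix. Fibrillar collagens such as types I and V form the fibres of connective tissue, type IV forms the sheet of basement membranes on which epithelial cells rest, type VI forms beaded filaments near cells, and type VII anchors basement membranes to the tissue beneath. Others decorate fibrils (the FACIT family), span the cell membrane, or carry long sugar chains in basement membranes (the multiplexins). In tumours, collagens are made by fibroblasts and also by the cancer cells themselves, and basement membrane and matrix collagens are studied for their part in invasion and metastasis.

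The libraries held between 17217776 and 20292291 counts in genes, so that 1 read was worth between 0.0488 and 0.0583 CPM (counts scaled to library size after TMM). TAF7 itself was lower in both shTAF7 libraries of each line than in both controls, at 58.5% of control in MDA-MB-231 (60.21 and 61.76 FPKM in the control, 35.42 and 35.19 after knockdown) and 74.2% in LM2 (66.52 and 67.41 against 45.1 and 45.78). Libraries of the LM2 control had reads in more genes (24762 and 24490) than the other 6 (22296 to 23434). Of the markers of a mesenchymal triple-negative line, VIM, CD44, AXL, ZEB1 and MSN were all present (at least 4.77 FPKM in every library, the lowest being ZEB1). Of the genes expected to be low, ESR1, PGR and CDH1 had at most 5 counts in any library. ERBB2 (5.18 to 6.77 FPKM) and EPCAM (2.22 to 4.27 FPKM) were detected in every library, ERBB2 above the lowest ZEB1 value. Of 7 fibroblast markers, 6 had at most 5 counts in every library, and the list summed to between 0.17 FPKM (LM2 shTAF7 replicate 3) and 0.73 FPKM (LM2 control replicate 3), nearly all of it PDGFRB. Endothelial markers summed to 2.37 and 2.13 FPKM in the LM2 control, 1.43 and 1.4 in LM2 shTAF7 and 0.7 to 1.1 in MDA-MB-231, with PECAM1, KDR and TIE1 the highest and the defining junction gene CDH5 at no more than 3 counts. These markers did not move together. PECAM1 was at 0.46 to 0.88 FPKM in MDA-MB-231, 0.48 and 0.44 in the LM2 control and 0.12 and 0.14 in LM2 shTAF7. KDR (0.9 and 1.03) and TIE1 (0.78 and 0.46) were higher in the LM2 control than in MDA-MB-231 (at most 0.12 and 0.06). All 5 leukocyte markers had at most 5 counts. The endothelial and fibroblast sums moved with line and knockdown, and their part in the results below was not tested.

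Most collagen genes with enough reads differed between the lines. Knockdown lowered COL7A1, COL6A1, COL6A2, COL5A1 and COL1A1 in LM2, raised COL13A1 in both lines, and lowered COL4A1 in both. Together the 44 genes summed to 76.04 and 73.36 FPKM in the parental control, 78.17 and 79.28 in parental shTAF7, 133.6 and 139.6 in the LM2 control, and 110.6 and 110.4 in LM2 shTAF7. Both LM2 groups were above both MDA-MB-231 groups, and in LM2 the FPKM sum was lower in both knockdown libraries than in both controls. The collagen counts themselves were 21364 and 21722 in the LM2 control and 21044 and 22570 in LM2 shTAF7. FPKM carries no TMM factor (1.03188 and 1.03916 in the LM2 control, 0.959863 and 0.934569 in LM2 shTAF7). With those factors the difference would be smaller, so a fall in total collagen RNA is not established. Between the controls, 16 of the 26 tested genes were higher in LM2 and 5 were lower, or 80.8%, against 64.4% of all tested genes (32.2% higher and 32.1% lower). COL4A5 and COL4A6 had at most 4 counts in any MDA-MB-231 library, and COL9A3 and COL20A1 at most 5 in any LM2 library. These genes passed the low-count filter only through the line where they are high. Their calls between the lines enter these counts and the median below, and are not independent of the filter. After knockdown in MDA-MB-231, 3 rose and 4 fell, 26.9% of the tested members against 25.6% of all genes (12.6% higher and 12.9% lower), so that the share of members changed was close to that of all genes. After knockdown in LM2, 3 rose and 11 fell, 53.8% against 41.3% of all genes (21.8% higher and 19.4% lower). The knockdown effect differed between the lines for 11 members, 2 more positive and 9 more negative in LM2, 42.3% against 25.8% of all genes (13.9% and 11.9%). The medians over the 26 genes were 0.84 between the lines, 0.05 and -0.44 for knockdown in MDA-MB-231 and LM2, and -0.69 for the difference, where those of all tested genes were 0.024, 0.008, -0.016 and -0.003. These log2 fold changes, and the standard errors given with them below, come from edgeR's quasi-likelihood fit to all 8 libraries (n = 2 per group), and genes with a Benjamini-Hochberg adjusted p below 0.05 are those called. In the same fit the knockdown effect on TAF7 itself differed between the lines (0.34 ± 0.09, adjusted p = 0.00544), with the larger decrease in MDA-MB-231. Whether this unequal knockdown has a part in the differences of the 11 members was not tested. With library totals alone the share of called genes that rose with knockdown in LM2 was 30.9% in place of 52.9%, and 2 members rose and 13 fell, while for the difference between the effects it was 32.7% in place of 54%. The LM2 control libraries enter both the comparison of the lines and that of knockdown in LM2, so these are not independent of each other. In bulk RNA, fewer cells that express a gene and less RNA per cell cannot be told apart.

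**Figure D1:**
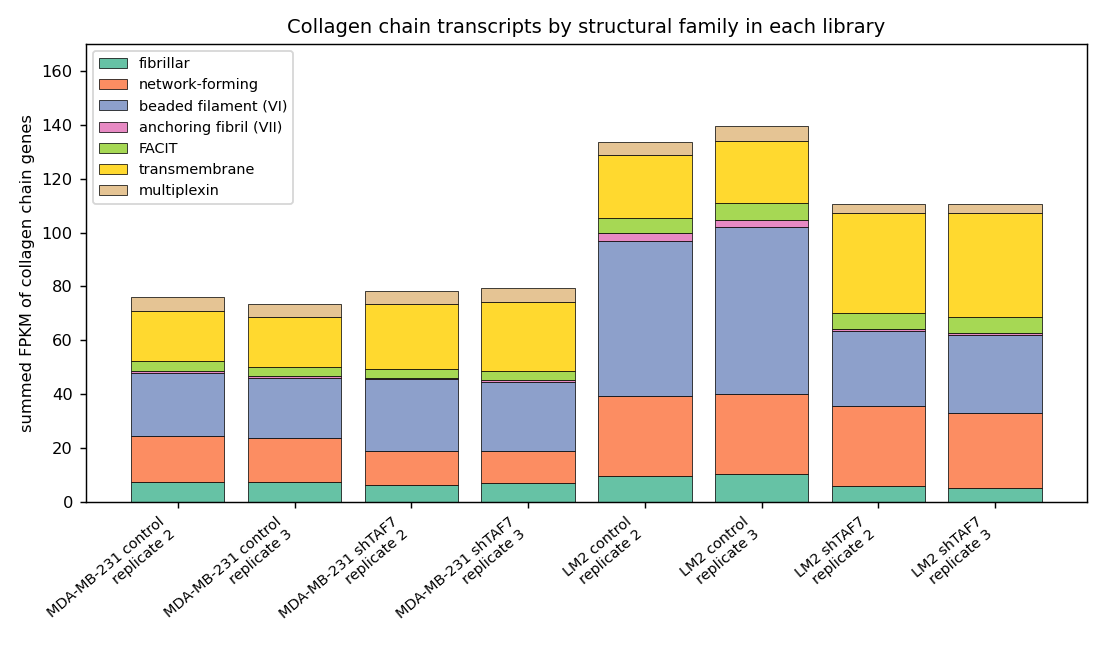
Summed FPKM of the collagen chain genes in each of the 8 libraries (y axis), stacked by structural family, 1 bar per library. FPKM carries no TMM factor. The LM2 control bars reach 133.6 and 139.6 FPKM and the LM2 shTAF7 bars 110.6 and 110.4, and the type VI part of the LM2 bars goes from 57.61 and 61.94 to 27.71 and 28.88 FPKM while the transmembrane part goes from 23.16 and 23.06 to 37.34 and 38.52.

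Type VI and the transmembrane chains made up most of the summed collagen FPKM in every library. Type VI took 30.97% and 30.51% of the summed FPKM in the parental control and 33.99% and 32.67% after knockdown. In LM2 its share was 43.12% and 44.37% in the control and 25.05% and 26.15% after knockdown, the lowest of the 4 groups. Transmembrane chains went the other way in LM2, with 17.34% and 16.52% in the control and 33.75% and 34.88% in shTAF7. In MDA-MB-231 their share was higher after knockdown, as was that of type VI (24.42% and 25.14% in the control, 30.82% and 32.3% in shTAF7 for transmembrane chains). The fibrillar chains that dominate connective tissue took between 4.853% (LM2 shTAF7 replicate 3) and 10.13% (parental control replicate 3).

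**Figure D2:**
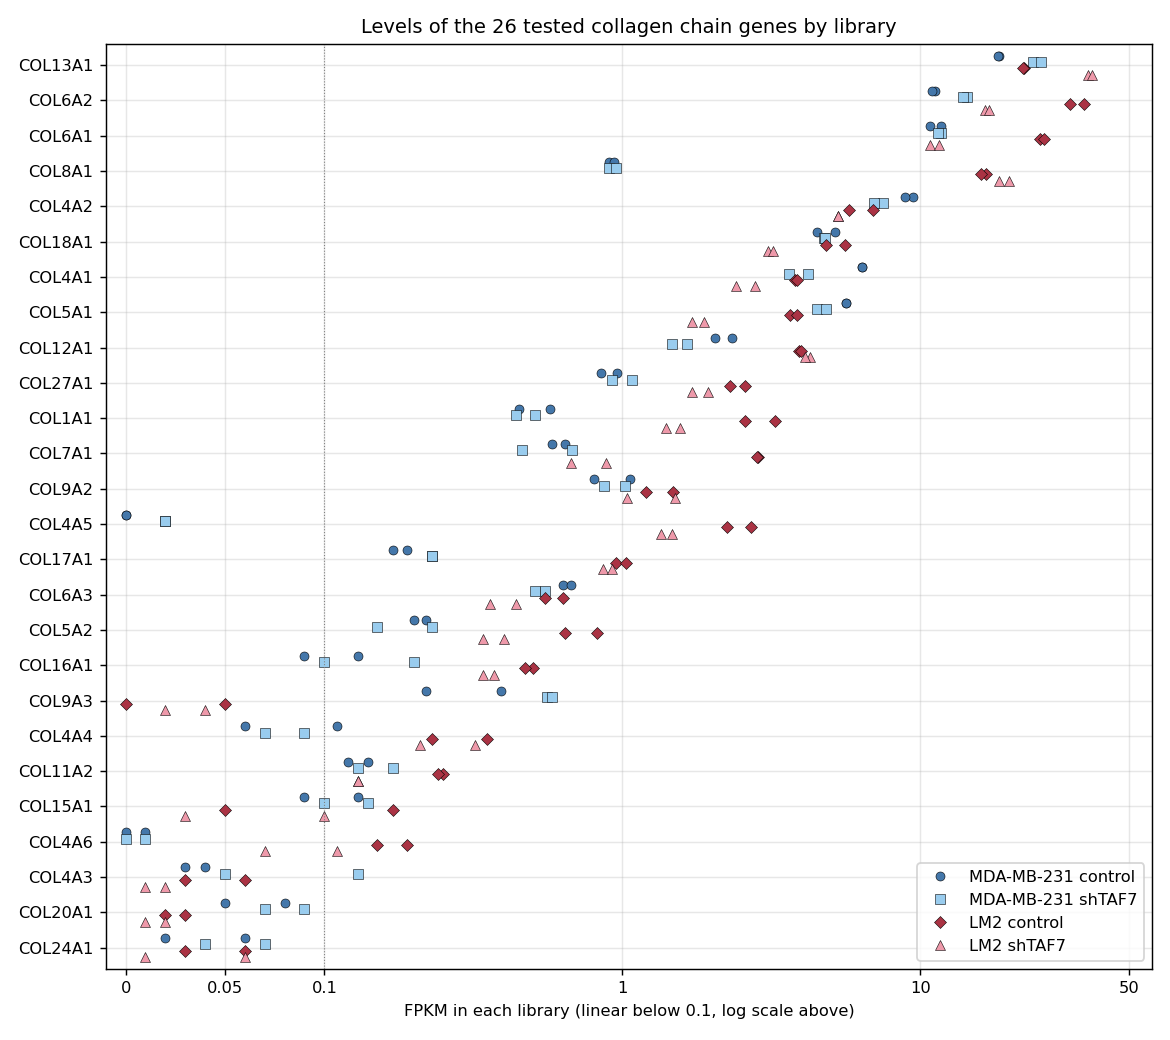
FPKM of each of the 26 tested collagen chain genes (y axis, ordered by mean level) in each library (x axis, linear below 0.1 and logarithmic above), with 1 symbol per library, coloured by group. COL13A1 leads, COL8A1 lies near 0.9 FPKM in MDA-MB-231 and between 15.95 and 19.84 in LM2, and COL4A5 lies at or near 0 in MDA-MB-231 and between 1.35 and 2.69 in LM2.

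COL4A1 and COL4A2 encode the chains of the common basement membrane collagen, in which 2 alpha-1 chains join 1 alpha-2 chain. The genes lie head to head on chromosome 13, with starts 127 bases apart in the RefSeq table (GRCh38.p14), so the windows from 250 bases before to 50 bases after each start share 226 bases. Both windows are shown because these genes changed in the same direction with knockdown in MDA-MB-231 and between the lines. Capitals mark matches, on either strand, to a CCAAT box, to a GC box spelled GGGCGG, to a TATA box spelled TATAAA, to an AP-1 site spelled TGANTCA, to a TEAD site spelled GGAATG and to the NF-kB consensus, and matches that overlap run together.
COL4A1 promoter, chr13:110307108-110307407, minus strand: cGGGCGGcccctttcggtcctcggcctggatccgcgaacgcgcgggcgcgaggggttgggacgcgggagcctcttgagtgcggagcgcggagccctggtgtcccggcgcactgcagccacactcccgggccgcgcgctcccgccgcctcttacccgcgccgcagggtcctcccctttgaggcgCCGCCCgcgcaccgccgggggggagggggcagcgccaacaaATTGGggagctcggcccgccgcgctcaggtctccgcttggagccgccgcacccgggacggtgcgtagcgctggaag
COL4A2 promoter, chr13:110307034-110307333, plus strand: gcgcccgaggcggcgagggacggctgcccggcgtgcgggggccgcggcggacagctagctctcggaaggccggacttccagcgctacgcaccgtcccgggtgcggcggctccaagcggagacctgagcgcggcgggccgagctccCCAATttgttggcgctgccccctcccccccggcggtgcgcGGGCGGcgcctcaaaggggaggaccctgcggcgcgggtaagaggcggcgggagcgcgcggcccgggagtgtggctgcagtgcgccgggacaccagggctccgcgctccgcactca
The CCAAT match is one and the same in both windows (antisense in that of COL4A1), and so is a GC box, which begins 67 bases before the COL4A1 start and 65 bases before the COL4A2 start.

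COL4A1 was at 6.36 and 6.36 FPKM in the parental control, 4.19 and 3.63 in parental shTAF7, 3.78 and 3.86 in the LM2 control, and 2.78 and 2.41 in LM2 shTAF7. The 4 control libraries did not overlap with the knockdown libraries of their own line, and the LM2 control lay below the parental control. The gene fell in both lines, to 62.1% of the control level in MDA-MB-231 (-0.69 ± 0.08 on the log2 scale, adjusted p = 3.8e-09) and to 74.1% in LM2 (-0.43 ± 0.08, adjusted p = 3.32e-05). The difference between those effects was not called (0.25 ± 0.11, adjusted p = 0.0936), though it passed without parental shTAF7 replicate 2 (0.39, adjusted p = 0.012) or LM2 shTAF7 replicate 3 (0.38, adjusted p = 0.0165). COL4A2 was at 9.46 and 8.87, 7.51 and 7, 5.77 and 6.92, and 5.29 and 5.28 FPKM in the same order of groups. It too was highest in the parental control, and it fell to 80% of control in that line (-0.32 ± 0.07, adjusted p = 0.000723). In LM2 its change was not called (-0.14 ± 0.07, adjusted p = 0.143), yet it was called lower without LM2 control replicate 2 (-0.25, adjusted p = 0.0215) and with library totals alone (-0.27, adjusted p = 0.00367). The interaction for COL4A2 was likewise not called (0.19 ± 0.10, adjusted p = 0.195), except without LM2 control replicate 3 (0.34, adjusted p = 0.0168). Between the controls, LM2 was lower for both genes, at 59% of the MDA-MB-231 level for COL4A1 (-0.76 ± 0.08, adjusted p = 5.58e-12) and 67.9% for COL4A2 (-0.56 ± 0.07, adjusted p = 4.86e-09).

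COL4A5 and COL4A6 encode chains of another type IV network, found in the basement membranes of kidney, skin and smooth muscle, and also lie head to head, on the X chromosome. Their starts are 380 bases apart and the windows share 121 bases. They are shown because both genes had almost no reads in MDA-MB-231 and were detected in every LM2 library.
COL4A5 promoter, chrX:108439588-108439887, plus strand: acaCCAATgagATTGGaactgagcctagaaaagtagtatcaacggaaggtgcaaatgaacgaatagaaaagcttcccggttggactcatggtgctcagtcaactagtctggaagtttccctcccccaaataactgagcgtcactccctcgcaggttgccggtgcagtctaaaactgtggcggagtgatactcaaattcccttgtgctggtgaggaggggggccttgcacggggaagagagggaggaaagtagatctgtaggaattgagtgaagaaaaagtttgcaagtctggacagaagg
COL4A6 promoter, chrX:108439409-108439708, minus strand: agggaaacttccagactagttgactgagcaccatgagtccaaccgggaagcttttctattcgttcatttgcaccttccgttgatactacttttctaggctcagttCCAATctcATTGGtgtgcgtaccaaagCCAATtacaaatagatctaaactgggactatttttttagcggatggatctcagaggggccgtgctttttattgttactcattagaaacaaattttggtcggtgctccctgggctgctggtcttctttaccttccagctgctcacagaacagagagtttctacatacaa
Both windows hold the same pair of CCAAT matches in opposite orientation, and that of COL4A6 holds a further match 118 bases before its start. Their GC content was 49.3% and 43.7%, against 76.7% and 77.7% in the windows of COL4A1 and COL4A2.

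COL4A5 had 0 and 1 counts in the parental control, 4 and 4 in parental shTAF7, 563 and 462 in the LM2 control, and 327 and 326 in LM2 shTAF7. The counts over the controls, 1025 against 1, correspond to a ratio of 1050 with a 95% counting interval of 189 to 41600. Knockdown in LM2 left 62.5% of the control level (-0.68 ± 0.12, adjusted p = 6.29e-06), and in MDA-MB-231 the 8 counts against 1 gave a ratio of 7.89 (95% counting interval 1.06 to 350) that was not called (adjusted p = 0.0658). COL4A6 had 1 and 0 counts in the parental control, 1 and 0 in parental shTAF7, 25 and 30 in the LM2 control, and 19 and 13 in LM2 shTAF7. It was thus far less abundant than its neighbour (0.15 and 0.19 against 2.69 and 2.25 FPKM in the LM2 control). The controls differed by a ratio of 56.5 (95% counting interval 9.73 to 2270, adjusted p = 9.73e-08). COL4A5 and COL4A6 passed the low-count filter only through LM2, so their differences between the controls are not independent of it. The decrease of COL4A6 with knockdown in LM2 was not called (-0.80 ± 0.44, adjusted p = 0.139), although its LM2 groups did not overlap.

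COL4A3 and COL4A4 encode some of the chains of the basement membrane of the kidney glomerulus and also share a divergent promoter. COL4A4 had 13 and 22 counts in the parental control, 15 and 21 after knockdown, 72 and 46 in the LM2 control and 71 and 51 in LM2 shTAF7. Both LM2 groups lay above both MDA-MB-231 groups (1.78 ± 0.34 between the controls, adjusted p = 9.59e-06), and knockdown was not called in either line (0.01 ± 0.41 and 0.02 ± 0.27). COL4A3 had between 3 and 32 counts, with 7 and 8 in the parental control and 11 and 32 after knockdown. Its rise in MDA-MB-231 (1.46 ± 0.53, adjusted p = 0.0357) rested on shTAF7 replicate 3, without which it was 0.66 (adjusted p = 0.624). It was not called without control replicate 2 (1.31, adjusted p = 0.235) or control replicate 3 (1.60, adjusted p = 0.134) either, nor without any 1 of the 4 LM2 libraries (1.44 to 1.46, adjusted p from 0.0506 to 0.0618), with only the MDA-MB-231 libraries (1.46, adjusted p = 0.0515) or with limma (adjusted p = 0.312 and 0.218). An antisense gene that shares 120 exon bases with COL4A3 had 228 counts over the 8 libraries, more than the 86 of COL4A3, and no strand setting is given for the counts.

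COL8A1 encodes a short-chain collagen that forms hexagonal networks in vessel walls and under the corneal endothelium. It was at 0.9 and 0.94 FPKM in the parental control, 0.9 and 0.95 in parental shTAF7, 16.64 and 15.95 in the LM2 control, and 19.84 and 18.35 in LM2 shTAF7. No LM2 library came near any MDA-MB-231 library, and the controls differed 17.3-fold (4.12 ± 0.09, adjusted p = 3.1e-37), the largest difference between the lines among members with more than 3 counts in each control group. Knockdown raised COL8A1 1.28-fold in LM2 (0.36 ± 0.07, adjusted p = 2.58e-05), and it was not called in MDA-MB-231 (0.02 ± 0.12). With library totals alone, which shift the median of all genes in this comparison by -0.129, the rise was 0.23 (adjusted p = 0.00477), and with limma on log2(FPKM + 0.1) it was not called (0.23, adjusted p = 0.0619). The interaction was not called either (0.33 ± 0.14, adjusted p = 0.075), except without LM2 shTAF7 replicate 3 (0.41, adjusted p = 0.0324). Its usual partner chain COL8A2 was not tested and had at most 9 counts in a library. COL10A1, the collagen of growing cartilage, had 12 counts over all 8 libraries.

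**Figure D3:**
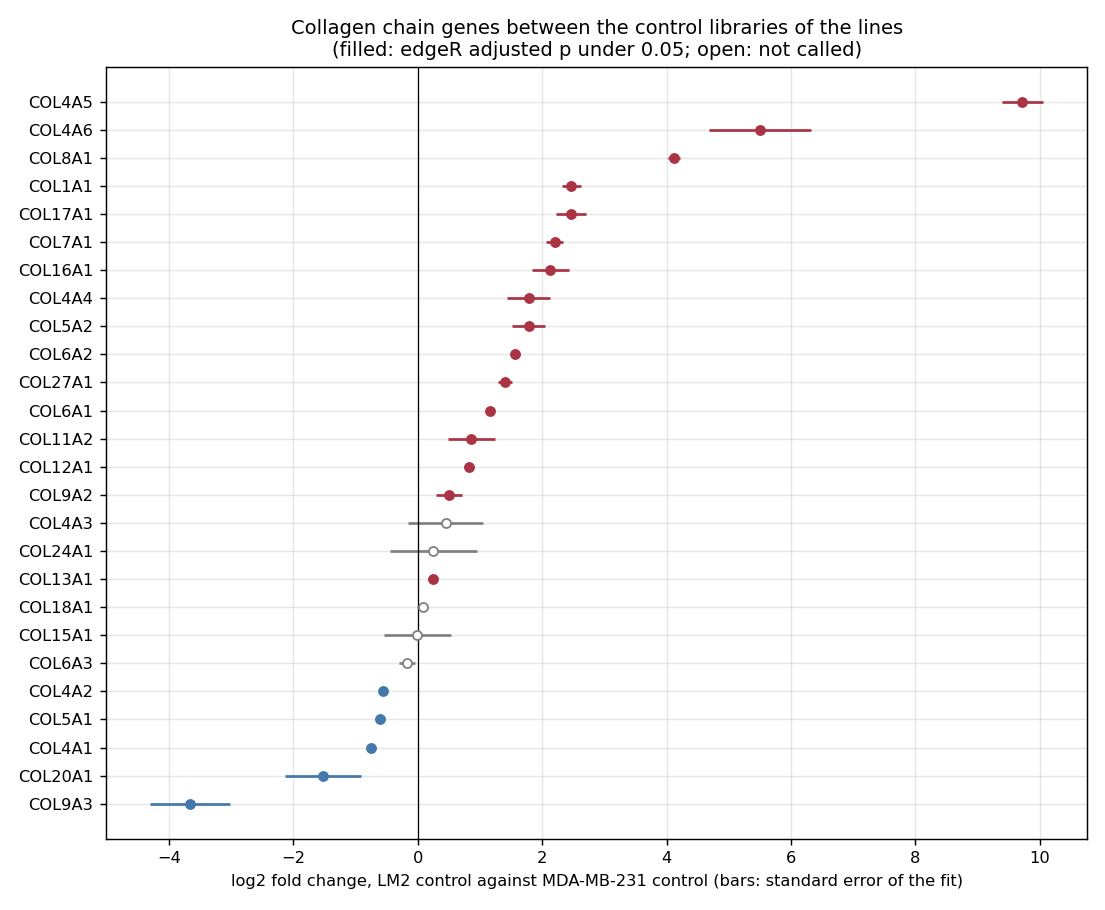
Log2 fold change of each tested collagen chain gene (y axis) between the LM2 control and the parental (MDA-MB-231) control (x axis), with bars for the standard error of the fit and n = 2 libraries per group, and filled symbols for called genes. The values run from -3.66 for COL9A3 to 9.72 for COL4A5, whose size depends on a single read in the parental control. Called higher in LM2 are 16 of 26 genes, against 32.2% of all tested genes. Of the 16, COL4A5 and COL4A6 passed the low-count filter only through LM2.

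Type VI collagen is built from alpha-1, alpha-2 and usually alpha-3 chains. COL6A1 and COL6A2, which are neighbours on chromosome 21, were highest in the LM2 control and fell with knockdown there. COL6A1 was at 11.72 and 10.73 FPKM in the parental control, 11.75 and 11.45 in parental shTAF7, 25.23 and 26.01 in the LM2 control, and 10.75 and 11.54 in LM2 shTAF7. In FPKM, which carries no TMM factor, the LM2 shTAF7 values lay within the range of the MDA-MB-231 libraries. With TMM the group means were 61.24 CPM in the parental control, 64.02 in parental shTAF7 and 65.25 in LM2 shTAF7. The LM2 control was 2.24-fold higher than the parental control (1.16 ± 0.07, adjusted p = 4.64e-19), knockdown in LM2 left 47.6% (-1.07 ± 0.07, adjusted p = 8.74e-17), and no change was called in MDA-MB-231 (0.06 ± 0.08, adjusted p = 0.601). The difference between the knockdown effects was -1.13 ± 0.10 (adjusted p = 6.11e-12). COL6A2 was at 11.19 and 10.95 FPKM in the parental control, 14.3 and 13.9 in parental shTAF7, 31.74 and 35.37 in the LM2 control, and 16.52 and 16.98 in LM2 shTAF7. The LM2 control was 2.97-fold above the parental control (1.57 ± 0.07, adjusted p = 3.98e-24). Knockdown moved the gene in opposite directions, up 1.29-fold in MDA-MB-231 (0.36 ± 0.07, adjusted p = 0.000218) and down to 54.6% in LM2 (-0.87 ± 0.07, adjusted p = 2.45e-14), and the difference was called (-1.24 ± 0.10, adjusted p = 2.1e-13). With offsets for GC content and transcript length the rise in MDA-MB-231 was 0.19 (adjusted p = 0.0281).

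COL6A3, whose chain the assembly of most type VI collagen requires, was far lower than its partners, at 0.63 and 0.67 FPKM in the parental control, 0.51 and 0.55 in parental shTAF7, 0.63 and 0.55 in the LM2 control, and 0.44 and 0.36 in LM2 shTAF7. It did not follow COL6A1 and COL6A2 between the lines (-0.17 ± 0.13, adjusted p = 0.265). In LM2 it fell with knockdown (-0.44 ± 0.14, adjusted p = 0.00902), but not without LM2 control replicate 2 (-0.32, adjusted p = 0.152) or LM2 shTAF7 replicate 3 (-0.30, adjusted p = 0.174), or with limma on log2(FPKM + 0.1) (-0.47, adjusted p = 0.0622). COL6A5 and COL6A6, alternatives to the alpha-3 chain, had 4 and 5 counts over all 8 libraries. The window of COL6A2 is shown because the gene changed with knockdown in both lines, and because its window holds a TATA box, the element that the TBP subunit of TFIID recognises.
COL6A2 promoter, chr21:46097862-46098161, plus strand: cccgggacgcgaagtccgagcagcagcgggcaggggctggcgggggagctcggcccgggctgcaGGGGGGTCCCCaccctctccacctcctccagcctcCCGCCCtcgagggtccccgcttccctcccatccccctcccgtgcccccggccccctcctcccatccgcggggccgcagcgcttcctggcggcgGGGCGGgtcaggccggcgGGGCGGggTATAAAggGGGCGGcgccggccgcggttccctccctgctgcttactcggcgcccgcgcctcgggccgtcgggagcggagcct
The TATAAA match begins 32 bases before the start, between GC boxes at 40 and 24 bases, and overlapping NF-kB matches begin at 186 and 185 bases.

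COL7A1, the anchoring fibril collagen of skin, showed the steepest decrease with knockdown of all members called in either line. It was at 0.58 and 0.64 FPKM in the parental control, 0.46 and 0.68 in parental shTAF7, 2.86 and 2.83 in the LM2 control, and 0.88 and 0.67 in LM2 shTAF7. The LM2 control stood furthest apart, and in FPKM the lower of the LM2 shTAF7 values lay within the MDA-MB-231 range. With TMM the group means were 6.694 CPM in the parental control, 6.327 in parental shTAF7 and 9.122 in LM2 shTAF7. The LM2 control was 4.58-fold above the parental control (2.20 ± 0.14, adjusted p = 3.26e-19). Knockdown in LM2 left 29.7% (-1.75 ± 0.13, adjusted p = 2.01e-15), no change was called in MDA-MB-231 (-0.06 ± 0.17, adjusted p = 0.832), and the difference between the effects was -1.69 ± 0.21 (adjusted p = 2.14e-08). The window of COL7A1 is shown beside this largest decrease.
COL7A1 promoter, chr3:48595280-48595579, minus strand: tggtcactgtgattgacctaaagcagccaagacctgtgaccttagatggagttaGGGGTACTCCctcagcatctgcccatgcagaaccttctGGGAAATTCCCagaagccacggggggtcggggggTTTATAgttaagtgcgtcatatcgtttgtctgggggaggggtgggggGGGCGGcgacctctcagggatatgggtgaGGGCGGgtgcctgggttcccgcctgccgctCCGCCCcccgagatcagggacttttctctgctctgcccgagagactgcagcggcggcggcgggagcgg
NF-kB matches begin 196, 158 and 157 bases before the start, the last 2 of them overlapping on opposite strands, a TATAAA match lies 124 bases before the start on the antisense strand, and GC boxes lie at 77, 48 and 18 bases.

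Windows of this kind were found for 32 of the 44 members, 20 of them tested. Of those 20, 4 held a TATAAA match, 5 a CCAAT box, 12 a GC box, 4 an NF-kB match, 1 a TEAD site and 0 an AP-1 site. Over all 35116 promoter windows of the same length in the table, the shares were 11.5%, 34.6%, 45%, 11.3%, 14% and 7.71%. The TATAAA match of COL6A2 began 32 bases before the start, and those of COL13A1, COL17A1 and COL7A1 began 236, 206 and 124 bases before it. These matches are letters in a window and say nothing of binding.

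Among the fibrillar collagens, COL1A1 (type I, the main collagen of bone, skin and tendon) and COL5A1 and COL5A2 (type V, which sets fibril diameter) were all lower after knockdown in LM2. COL1A1 was at 0.57 and 0.45 FPKM in the parental control, 0.44 and 0.51 in parental shTAF7, 2.57 and 3.24 in the LM2 control, and 1.56 and 1.4 in LM2 shTAF7. All LM2 libraries lay above all MDA-MB-231 libraries, and within LM2 the groups did not overlap. The controls differed 5.55-fold (2.47 ± 0.15, adjusted p = 4.75e-20), and knockdown in LM2 left 55.6% (-0.85 ± 0.12, adjusted p = 2.4e-07), with no change called in MDA-MB-231 (-0.08 ± 0.19, adjusted p = 0.806). The difference between the effects (-0.76 ± 0.22, adjusted p = 0.00862) was lost without parental control replicate 3 (-0.60, adjusted p = 0.0822), parental shTAF7 replicate 3 (-0.66, adjusted p = 0.0766) or LM2 control replicate 3 (-0.57, adjusted p = 0.0848), or with limma on log2(FPKM + 0.1) (-0.84, adjusted p = 0.0534). COL1A2, the partner chain of COL1A1 in most tissues, had 3 counts over all 8 libraries, and COL3A1 had 13, so COL1A1 was the only one of these interstitial collagen genes with enough reads to be tested.

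COL5A1 was at 5.61 and 5.64 FPKM in the parental control, 4.5 and 4.83 in parental shTAF7, 3.65 and 3.86 in the LM2 control, and 1.88 and 1.71 in LM2 shTAF7. It was the most abundant fibrillar chain in every library but those of LM2 shTAF7, where COL27A1 was as high or higher, and unlike COL1A1 it was lower in the LM2 control than in MDA-MB-231 (-0.61 ± 0.08, adjusted p = 4.22e-09). Knockdown left 52.2% in LM2 (-0.94 ± 0.09, adjusted p = 3.96e-12), a larger decrease than in MDA-MB-231 by the interaction test (-0.68 ± 0.12, adjusted p = 1.42e-05). In MDA-MB-231 it was called lower (-0.25 ± 0.08, adjusted p = 0.0126), but not without control replicate 2 (-0.26, adjusted p = 0.0914), control replicate 3 (-0.25, adjusted p = 0.101) or shTAF7 replicate 2 (-0.22, adjusted p = 0.0752), nor with limma on log2(FPKM + 1) (-0.23, adjusted p = 0.0632) or log2(FPKM + 0.1) (-0.27, adjusted p = 0.0763). COL5A2 was at 0.22 and 0.2, 0.15 and 0.23, 0.64 and 0.82, and 0.4 and 0.34 FPKM in the order parental control and shTAF7, LM2 control and shTAF7. It was 3.42-fold higher in the LM2 control than in the parental control (1.78 ± 0.26, adjusted p = 7.73e-08). Its decrease in LM2 (-0.86 ± 0.24, adjusted p = 0.00272) was not called without LM2 control replicate 3 (-0.67, adjusted p = 0.0875) or LM2 shTAF7 replicate 3 (-0.73, adjusted p = 0.0536). COL5A3 had no count in any library, which allows up to 3 counts in each, or between 0.146 and 0.175 CPM.

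COL27A1, a fibrillar collagen of developing cartilage, was at 0.85 and 0.96 FPKM in the parental control, 0.92 and 1.08 in parental shTAF7, 2.57 and 2.29 in the LM2 control, and 1.93 and 1.71 in LM2 shTAF7. It was 2.64-fold higher in the LM2 control (1.40 ± 0.11, adjusted p = 1.34e-15). A fall of 0.29 ± 0.10 on the log2 scale with knockdown in LM2 (adjusted p = 0.0157) was not called without LM2 control replicate 2 (-0.20, adjusted p = 0.235) or LM2 shTAF7 replicate 3 (-0.21, adjusted p = 0.207), or with DESeq2 (-0.29, adjusted p = 0.0766), without the low-count filter (-0.26, adjusted p = 0.0634) or with limma on log2(FPKM + 0.1) (-0.40, adjusted p = 0.0656). COL11A2, a chain of cartilage fibrils, had 32 and 30 counts in the LM2 control, 18 and 19 in LM2 shTAF7 and 16 to 25 in the MDA-MB-231 libraries, so that the LM2 control was the highest group. Its change with knockdown in LM2 was not called (-0.77 ± 0.37, adjusted p = 0.0942), but it was called lower with library totals alone (-0.90, adjusted p = 0.0468) and with limma on log2(FPKM + 1) and log2(FPKM + 0.1) (-0.14 and -0.58, adjusted p = 0.0343 and 0.0323). The difference between the controls (0.86 ± 0.38, adjusted p = 0.0426) was not called without any 1 of those 4 control libraries (0.77 to 0.91, adjusted p from 0.106 to 0.178) or without LM2 shTAF7 replicate 2 (0.84, adjusted p = 0.0532) or 3 (0.84, adjusted p = 0.0528). Nor was it called with the replicate number as a block (adjusted p = 0.0547), with DESeq2 (adjusted p = 0.126) or without the low-count filter (adjusted p = 0.0594). COL24A1 had between 1 and 14 counts in a library and was called in no comparison, and COL2A1 and COL11A1 had 6 and 19 counts over all libraries.

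Of the FACIT chains, which attach to the surface of fibrils, COL12A1 was the most abundant. Its level was 2.33 and 2.05 FPKM in the parental control, 1.65 and 1.47 in parental shTAF7, 3.92 and 3.97 in the LM2 control, and 4.26 and 4.09 in LM2 shTAF7. LM2 was higher than MDA-MB-231 throughout, 1.77-fold between the controls (0.82 ± 0.08, adjusted p = 1.26e-12). Knockdown lowered COL12A1 to 71.8% in MDA-MB-231 (-0.48 ± 0.09, adjusted p = 3.65e-05), and the effect in LM2 was more positive than that by 0.69 ± 0.11 (adjusted p = 8.58e-06). With offsets for GC content and length the decrease in MDA-MB-231 was -0.30 (adjusted p = 0.00535). In LM2 a small rise was called (0.21 ± 0.08, adjusted p = 0.0234). That rise was lost without LM2 control replicate 2 (0.21, adjusted p = 0.0872), LM2 control replicate 3 (0.22, adjusted p = 0.074) or LM2 shTAF7 replicate 2 (0.20, adjusted p = 0.0678), with upper-quartile factors (0.17, adjusted p = 0.0585), library totals alone (0.08, adjusted p = 0.404) or DESeq2 (0.21, adjusted p = 0.0655), and with limma on FPKM (0.07 and 0.08).

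COL9A2 and COL9A3 encode chains of type IX collagen of cartilage, whose remaining chain gene, COL9A1, had no count in any library. On the opposite strand, TCFL5 shares 45 exon bases (0.93%) with COL9A3, and no strand setting is given for the counts. TCFL5 had 7324 counts over the 8 libraries against 169 for COL9A3, with 833 and 800 in the parental control and 846 and 820 in the LM2 control. COL9A3 had 36 and 19 counts in the parental control, 47 and 57 in parental shTAF7, 4 and 0 in the LM2 control and 2 and 4 in LM2 shTAF7. All MDA-MB-231 libraries lay above all LM2 libraries, and the gene was lower in the LM2 control (-3.66 ± 0.64, adjusted p = 2.33e-06). It passed the low-count filter only through MDA-MB-231. Without LM2 control replicate 2 the fitted value was -7.78, since the 1 library that was left held no read. Its rise with knockdown in MDA-MB-231 was not called (0.90 ± 0.35, adjusted p = 0.0548). It passed without LM2 control replicate 2 (0.90, adjusted p = 0.0486), with the replicate number as a block (0.94, adjusted p = 0.0449), with only the libraries of the comparison (0.89, adjusted p = 0.0396), without the low-count filter (0.90, adjusted p = 0.0374) and with limma on log2(FPKM + 1) (0.27, adjusted p = 0.0291).

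COL9A2 was at 0.8 to 1.06 FPKM in MDA-MB-231 and 1.04 to 1.5 in LM2. Knockdown was called in neither line (0.04 ± 0.22 and 0.06 ± 0.20). The difference between the controls (0.50 ± 0.21, adjusted p = 0.0353) was not called without parental control replicate 2 (0.28, adjusted p = 0.347), without LM2 control replicate 3 (0.33, adjusted p = 0.295) or with DESeq2 (0.49, adjusted p = 0.12), without the low-count filter (0.47, adjusted p = 0.0537), with offsets for GC content and length (0.39, adjusted p = 0.0972) or with limma (0.28 and 0.49, adjusted p = 0.0752 and 0.0817). COL16A1 was at 0.13 and 0.09 FPKM in the parental control, 0.1 and 0.2 after knockdown, 0.5 and 0.47 in the LM2 control and 0.34 and 0.37 in LM2 shTAF7. It was 4.37-fold higher in the LM2 control (2.13 ± 0.30, adjusted p = 2.95e-08), and knockdown was called in neither line (0.51 ± 0.36 and -0.33 ± 0.24). The FACIT gene COL20A1 had 17 and 10 counts in the parental control and 5 and 4 in the LM2 control (-1.52 ± 0.61, adjusted p = 0.0267), a call that was lost without parental control replicate 2 (-1.17, adjusted p = 0.237), LM2 control replicate 2 (-1.68, adjusted p = 0.0919) or LM2 control replicate 3 (-1.39, adjusted p = 0.139), with DESeq2 (-1.54, adjusted p = 0.0949) or with limma (adjusted p = 0.241 and 0.0907).

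COL13A1, a transmembrane collagen found at cell adhesions and neuromuscular junctions, was the most abundant collagen chain gene of MDA-MB-231, and it rose with knockdown in both lines. It was at 18.4 and 18.25 FPKM in the parental control, 23.84 and 25.38 in parental shTAF7, 22.19 and 22.01 in the LM2 control, and 36.48 and 37.6 in LM2 shTAF7. Both knockdown groups lay above their controls without overlap, and LM2 shTAF7 was the highest of the 4 groups. The rise was 1.36-fold in MDA-MB-231 (0.44 ± 0.07, adjusted p = 2.52e-06) and 1.83-fold in LM2 (0.87 ± 0.07, adjusted p = 6.14e-15), and it was larger in LM2 (0.43 ± 0.09, adjusted p = 0.000479). Among the 7 members called in MDA-MB-231 and the 14 called in LM2, this was the only one called higher in both. The controls differed less (0.24 ± 0.07, adjusted p = 0.00167), and that call was lost without parental control replicate 3 (0.22, adjusted p = 0.0591), while offsets for GC content and length gave 0.15 (adjusted p = 0.0193).

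COL17A1, a transmembrane collagen of the hemidesmosomes that fix epithelial cells to the basement membrane, was at 0.17 and 0.19 FPKM in the parental control, 0.23 and 0.23 in parental shTAF7, 0.95 and 1.03 in the LM2 control, and 0.86 and 0.92 in LM2 shTAF7. Again the lines did not overlap, with the LM2 control 5.5-fold higher (2.46 ± 0.24, adjusted p = 1.6e-12), and knockdown was called in neither (0.42 ± 0.31, adjusted p = 0.356, and -0.02 ± 0.18, adjusted p = 0.931). The other transmembrane genes, COL23A1 and COL25A1, had 3 and 5 counts in all.

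Of the multiplexins, COL18A1, whose C-terminal fragment is endostatin, was at 5.15 and 4.5 FPKM in the parental control, 4.73 and 4.78 in parental shTAF7, 4.81 and 5.56 in the LM2 control, and 3.09 and 3.2 in LM2 shTAF7. Only LM2 shTAF7 lay outside the range of the others. Knockdown in LM2 left 66.3% (-0.59 ± 0.09, adjusted p = 5.94e-07), with no change called in MDA-MB-231 (-0.01 ± 0.09, adjusted p = 0.981) or between the controls (0.08 ± 0.09, adjusted p = 0.459). The knockdown effects differed by -0.59 ± 0.13 (adjusted p = 0.000334). The gene SLC19A1 overlaps 16.4% of the COL18A1 exon bases on the opposite strand in GENCODE release 29, but it had only 116 counts over the 8 libraries against 5576 for COL18A1. COL15A1 had between 4 and 19 counts in a library and was called in no comparison.

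**Figure D4:**
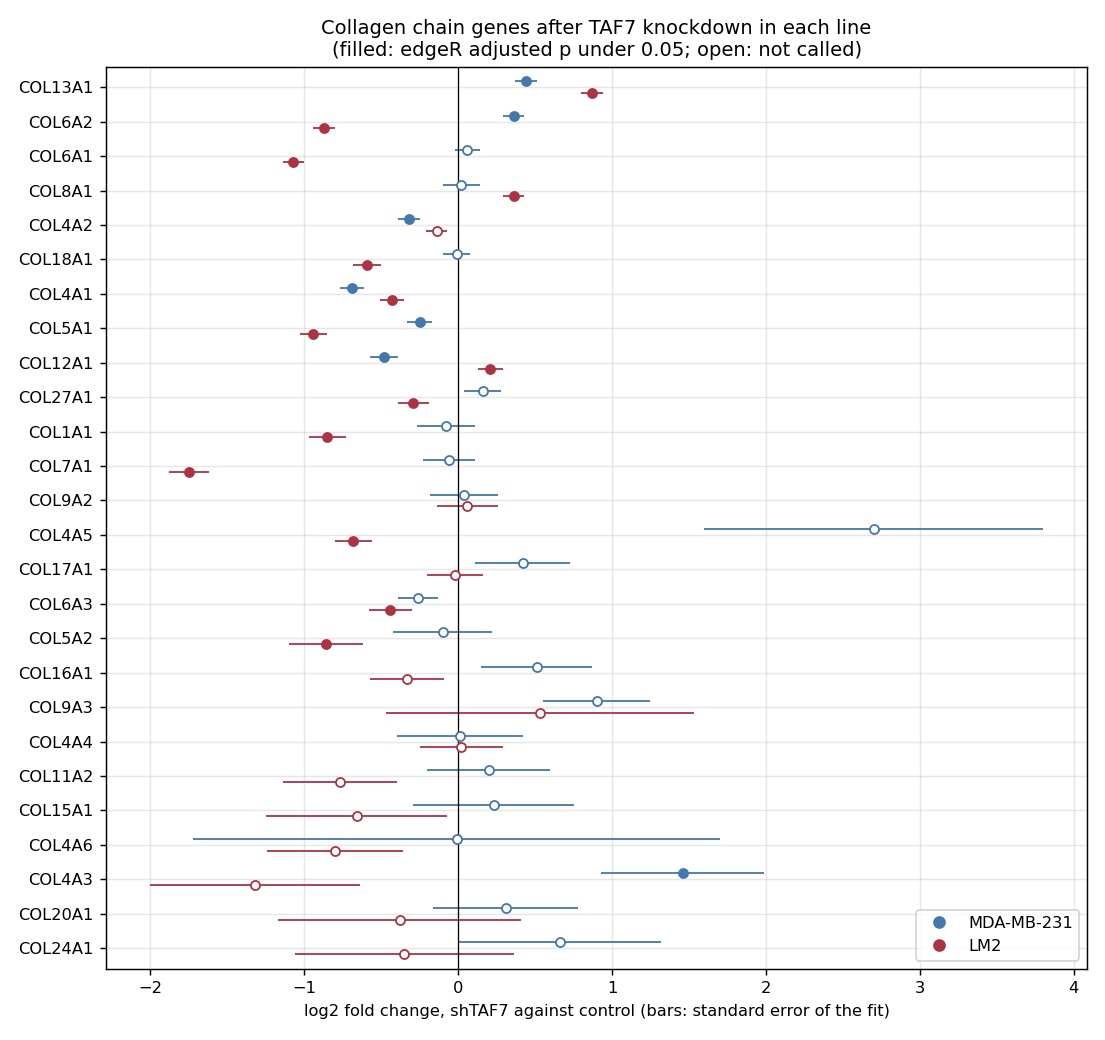
Log2 fold change of shTAF7 against control (x axis) for each tested collagen chain gene (y axis, ordered by mean FPKM) in MDA-MB-231 (blue) and LM2 (red), with bars for the standard error of the fit and filled symbols for called genes (n = 2 libraries per group). COL13A1 is higher in both lines (0.44 and 0.87), COL4A1 lower in both (-0.69 and -0.43), and COL6A2 is higher in MDA-MB-231 (0.36) and lower in LM2 (-0.87).

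With knockdown in LM2, 19.4% of all tested genes were called lower and 21.8% higher. Over the families, all 3 tested type VI genes were called lower there, as were 4 of 6 fibrillar and 2 of 7 network-forming genes. COL7A1 and 1 of 2 multiplexins also fell, while 1 of 7 network-forming, 1 of 5 FACIT and 1 of 2 transmembrane genes rose. Among these, the calls of COL6A3, COL5A2, COL27A1, COL8A1 and COL12A1 were lost under at least 1 alternative. In MDA-MB-231, where 12.9% of all genes fell and 12.6% rose, 1 of 6 fibrillar, 2 of 7 network-forming and 1 of 5 FACIT genes fell. There 1 of 7 network-forming, 1 of 3 type VI and 1 of 2 transmembrane genes rose. The calls of COL4A3 and COL5A1 were lost under at least 1 alternative. With 1 to 7 tested genes in a family, these counts were not tested against the shares of all genes. The median log2 fold changes in LM2 were -0.81 for the 6 fibrillar, -0.87 for the 3 type VI and -0.43 for the 7 network-forming genes, and in MDA-MB-231 they were 0.04, 0.06 and 0.01. A call held under every alternative that tested the gene for 5 of 7 members in MDA-MB-231, 9 of 14 in LM2, 17 of 21 between the lines and 7 of 11 for the difference between the effects. The other 18 members of the 44 had between 0 and 20 counts over all libraries. Beside those named above they were COL14A1, COL19A1, COL21A1, COL22A1, COL26A1 and COL28A1, with at most 3 counts in a library.

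Making a collagen takes enzymes and chaperones in the endoplasmic reticulum, a dedicated export route, proteases that trim the chains and enzymes that cross-link them outside the cell. A list of 20 genes for chain modification and folding held 19 that were tested. In MDA-MB-231, 3 of the 19 were called higher and 1 lower after knockdown (21.1% called against 25.6% of all genes, median -0.05). In LM2, 4 rose and 5 fell (47.4% against 41.3%, median 0.08). The shares were thus near those of all genes, and the counts changed when single libraries were left out. The 3 higher in MDA-MB-231 became 0 without parental control replicate 2 or parental shTAF7 replicate 2 and 1 without replicate 3 of either group or with limma, and the 1 lower became 2 or 3 under 7 alternatives. The 4 higher in LM2 became 2 without LM2 control replicate 2 and 1 with library totals alone or limma, and the 5 lower became 3 without LM2 control replicate 2 or 3 or LM2 shTAF7 replicate 3. P3H2, a prolyl 3-hydroxylase that acts on basement membrane collagen, fell in both lines (-0.53 ± 0.08, adjusted p = 7.73e-07, in MDA-MB-231 and -0.27 ± 0.07, adjusted p = 0.00239, in LM2), and the difference was not called (0.25 ± 0.11, adjusted p = 0.0719). P4HA1, a catalytic subunit of the prolyl 4-hydroxylase that stabilises the triple helix, was called higher in MDA-MB-231 (0.25 ± 0.07, adjusted p = 0.0106) and was not called in LM2 (0.03 ± 0.07). The prolyl hydroxylase P3H3 rose in LM2 (0.77 ± 0.13, against 0.03 ± 0.12 in MDA-MB-231) and differed between the lines (0.74 ± 0.18, adjusted p = 0.00169). COLGALT2, which adds galactose to hydroxylysine, fell in LM2 (-0.70 ± 0.14), with no call in MDA-MB-231 (-0.20 ± 0.14) or for the difference (-0.50 ± 0.20, adjusted p = 0.0565).

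Of 23 genes for export, trimming and cross-linking, 21 were tested. In the parental line 3 rose and 1 fell (19% against 25.6% of all genes, median 0.03), and in LM2 5 rose and 6 fell (52.4% against 41.3%, median -0.12). The 3 higher in MDA-MB-231 became 1 without parental control replicate 3 or parental shTAF7 replicate 3, and the 1 lower ranged from 0 to 3 over the alternatives. The 5 higher in LM2 became 3 without LM2 shTAF7 replicate 3, with DESeq2 or with library totals alone and 2 or 3 with limma, and the 6 lower became 12 with library totals alone and 11 with limma. LOX, the lysyl oxidase that cross-links collagen, was at 8.61 and 7.82 FPKM in the parental control, 11.63 and 12.24 in parental shTAF7, 26.36 and 25.97 in the LM2 control, and 17.17 and 16.83 in LM2 shTAF7. It therefore rose with knockdown in MDA-MB-231 (0.55 ± 0.08, adjusted p = 2.71e-07) and fell in LM2 (-0.49 ± 0.07, adjusted p = 9.91e-08). Its relative LOXL1 rose in both (0.48 ± 0.17 and 0.71 ± 0.15). PXDN, the peroxidase that forms the sulfilimine bonds of type IV collagen, fell in LM2 (-0.60 ± 0.08) and was not called in MDA-MB-231 (-0.16 ± 0.07, adjusted p = 0.0968), and MIA2, an export factor for large cargo, fell in both lines (-0.22 ± 0.07 and -0.70 ± 0.08).

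Among 13 receptor and uptake genes, 10 were tested and 5 fell with knockdown in LM2 (50% against 19.4% of all genes called lower, median -0.34), or 8 with library totals alone. None of the 10 rose there, with 0 called higher by edgeR, DESeq2 or limma and 0 at an unadjusted p under 0.05, where 21.8% of all genes were called higher. In MDA-MB-231 edgeR called 0 of the 10 in either direction (against 25.6% of all genes, median -0.01), with 0 at an unadjusted p under 0.05. DESeq2 called 0 there, limma on either FPKM scale called 1 lower, 1 was called lower without parental shTAF7 replicate 2 or LM2 shTAF7 replicate 2 or 3, and 1 was called higher with offsets for GC content and length. ITGA1, the alpha subunit of a collagen-binding integrin, was at 0.54 and 0.6 FPKM in the parental control, 0.51 and 0.66 in parental shTAF7, 3.02 and 2.81 in the LM2 control, and 1.15 and 1.09 in LM2 shTAF7. It fell in LM2 to 41.9% of control (-1.26 ± 0.10, adjusted p = 8.94e-15). The collagen receptor kinase DDR1 (-0.59 ± 0.11), the uptake receptor MRC2 (-0.56 ± 0.08) and ITGA2 (-0.29 ± 0.07) also fell in LM2.

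Of 24 matrix partners of collagens, 20 were tested, of which 4 were higher and 5 lower after knockdown in MDA-MB-231 (20% and 25% against 12.6% and 12.9% of all genes, median -0.01), with 2 higher by limma on log2(FPKM + 0.1). In LM2, 10 fell (50% against 19.4% of all genes, median -0.30) and 0 were called higher by edgeR, DESeq2 or limma (against 21.8% of all genes by edgeR), with 0 higher at an unadjusted p under 0.05. Laminins, the other main network of basement membranes, were among them. LAMC1 fell in both lines (-0.35 ± 0.07, adjusted p = 0.000203, in MDA-MB-231 and -0.66 ± 0.07 in LM2), LAMA3 fell in LM2 (-0.72 ± 0.09, against 0.11 ± 0.16 in MDA-MB-231), and LAMA4 rose in MDA-MB-231 (0.58 ± 0.12) and fell in LM2 (-1.55 ± 0.27). HSPG2, which encodes the basement membrane proteoglycan perlecan, fell in both (-0.74 ± 0.10 in MDA-MB-231 and -0.39 ± 0.11, adjusted p = 0.00292, in LM2), and the difference was not called (0.34 ± 0.15, adjusted p = 0.0758). THBS1, a matrix glycoprotein, fell to 48.2% of control in MDA-MB-231 (-1.05 ± 0.07) and was not called in LM2 (adjusted p = 0.982), and TNC rose in MDA-MB-231 (0.67 ± 0.08) and was not called in LM2 (-0.07 ± 0.08).

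Of 17 regulators known for collagen genes, 2 were called higher and 6 lower in MDA-MB-231 (11.8% and 35.3% against 12.6% and 12.9% of all genes), and 1 rose and 5 fell in LM2 (5.88% and 29.4% against 21.8% and 19.4%), with a median of -0.12 in each. The 2 higher in MDA-MB-231 became 1 without parental control replicate 2 or 3, parental shTAF7 replicate 3, LM2 control replicate 3 or LM2 shTAF7 replicate 2 or 3, and with DESeq2, library totals alone, limma or no low-count filter. In LM2 the 1 higher ranged from 0 to 2 over the alternatives, and the 5 lower became 12 with library totals alone and 9 with limma. TGFB2, a growth factor that induces collagen genes in fibroblasts, fell in both lines (-1.18 ± 0.08 and -1.24 ± 0.08). The receptor gene TGFBR2 (-0.70 ± 0.07) and the signal transducer SMAD3 (-0.43 ± 0.07) fell in LM2, without a call in the parental line (-0.12 ± 0.08 and -0.07 ± 0.07), and the knockdown effects differed (adjusted p = 4.08e-05 and 0.00424). RUNX2, a transcription factor of bone, fell in both lines, by more in LM2 (-0.83 ± 0.08) than in MDA-MB-231 (-0.35 ± 0.09, adjusted p = 0.00319), with a difference of -0.49 ± 0.12 (adjusted p = 0.00229). CCN2, a matricellular protein, fell in MDA-MB-231 (-0.50 ± 0.07) and was called higher in LM2 (0.17 ± 0.07, adjusted p = 0.0433). SOX9, the cartilage regulator, rose in MDA-MB-231 (0.43 ± 0.07) and was not called in LM2 (0.11 ± 0.07).

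**Figure D5:**
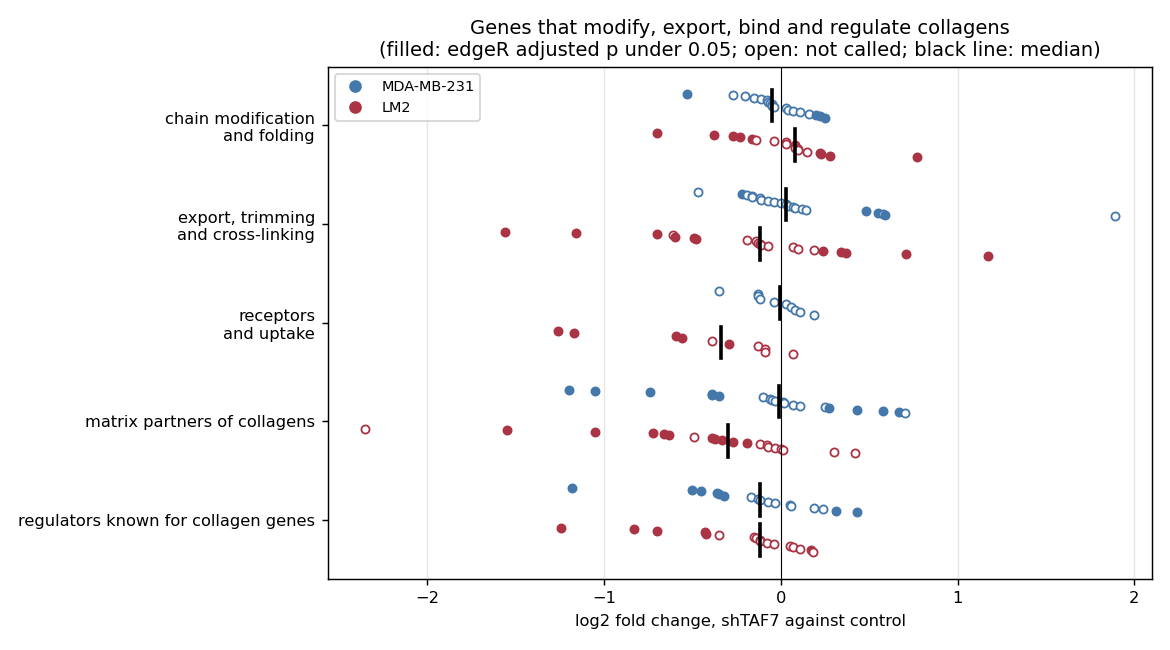
Log2 fold change of shTAF7 against control (x axis) for the tested genes of 5 lists around collagen (y axis) in MDA-MB-231 (blue) and LM2 (red), with filled symbols for called genes and a black line at each median. In LM2 the medians of receptors and matrix partners lie at -0.34 and -0.30, and in MDA-MB-231 both lie at -0.01.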

How the data were processed

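Messenger RNA was sequenced in 8 libraries, 2 in each of 4 groups taken from the sample titles. The deposited count table holds whole-number read counts per gene without normalization, and the deposited FPKM table was scaled by the authors by gene length and library size, as judged from the values (count over FPKM followed the library totals within 0.0109% over 580 genes). STAR 2.7.10a and the build hg19 appear, with no role stated, in the processing notes of the submitters. How reads were counted, on which strand and against which annotation is not given in the sources used here.

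Genes were filtered with filterByExpr (15923 left), scaled with TMM and fitted with edgeR's quasi-likelihood test (edgeR 4.0.16, R 4.3.3) as a mean per group over all 8 libraries, which left 4 residual degrees of freedom, with Benjamini-Hochberg adjustment over all tested genes. Standard errors are the log2 fold change over the square root of F. FPKM levels carry no TMM factor. Counting intervals (exact, 95%) and the floor of 3 counts cover counting error only. The pipeline was tested on simulated data.

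Alternatives were RLE, upper-quartile and total scaling, DESeq2 1.42.0, limma 3.58.1 on log2 FPKM with a pseudocount of 1 or 0.1, no filter, only the libraries compared, a replicate block, each library left out, and offsets from splines with 5 degrees of freedom on GC content and length of the longest GENCODE release 29 transcript (98.4% of genes). Members, lists and tests were chosen with earlier results of these data known. Named by rule were members called with an absolute log2 fold change of at least 0.5 and their partner chains, and in each other list up to 4 called genes per knockdown comparison with a mean of at least 5 CPM. Some further members are named to account for all 44. A gene that this rule selects is not reported here.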

Additional observations from a re-analysis of the deposited data

Results flagged for a closer look

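For 11 of the 26 tested collagen chain genes (42.3%, against 25.8% of all genes) the effect of knockdown in LM2 differed from that in MDA-MB-231. These were called by the interaction test (edgeR, adjusted p under 0.05). The difference is given here as the LM2 effect minus the MDA-MB-231 effect on the log2 scale. The difference was -1.69 for COL7A1, -1.24 for COL6A2, -1.13 for COL6A1, -0.76 for COL1A1, -0.68 for COL5A1, -0.59 for COL18A1 and -0.45 for COL27A1, and it was 0.69 for COL12A1 and 0.43 for COL13A1. COL6A2 and COL12A1 were called in opposite directions in the lines, though the rise of COL12A1 in LM2 was not called without LM2 control replicate 2 or 3 or LM2 shTAF7 replicate 2, as given above.

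The values of 2 further genes, -2.79 for COL4A3 and -3.38 for COL4A5, rest on few reads, for COL4A3 in both lines and for COL4A5 in MDA-MB-231. COL4A5 had 1 count over both control libraries there, and its value was -2.47 (adjusted p = 0.139) without parental control replicate 2, -3.25 (0.0604) and -3.50 (0.0503) without shTAF7 replicate 2 or 3, and -5.70 (0.0181) without control replicate 3. With DESeq2 it was -3.65 (adjusted p = 0.0704). The call for COL4A3 was lost without parental control replicate 2 (-2.63, adjusted p = 0.0542), parental shTAF7 replicate 3 (-1.97, adjusted p = 0.186), LM2 control replicate 2 (-2.28, adjusted p = 0.149) or LM2 shTAF7 replicate 2 (-2.49, adjusted p = 0.0677), and with limma on log2(FPKM + 1) (-0.12, adjusted p = 0.251) or log2(FPKM + 0.1) (-0.79, adjusted p = 0.139). The call for COL27A1 was lost without parental control replicate 2 (-0.35, adjusted p = 0.183), parental shTAF7 replicate 3 (-0.33, adjusted p = 0.198), LM2 control replicate 2 (-0.36, adjusted p = 0.146) or LM2 shTAF7 replicate 3 (-0.35, adjusted p = 0.137), and with DESeq2 (-0.44, adjusted p = 0.0974), no low-count filter (-0.42, adjusted p = 0.0756) or limma (-0.35 and -0.53, adjusted p = 0.0782 and 0.116).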

How the results depend on the processing

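No collagen gene changed sign and was called under any alternative. With all libraries in the fit or only those compared, the counts of members called stayed within 1.5 times of the values reported, except that 1 in place of 3 rose in LM2 with limma on log2(FPKM + 0.1). With each library left out in turn, the count of members higher for the difference between the effects ranged from 2 to 4 and the count lower from 5 to 9. The 5 lower came without parental shTAF7 replicate 3 and the 4 higher without LM2 shTAF7 replicate 3, and 8 members fell in LM2 without the latter. The replicate number links nothing in the labels, and the differences of replicate 3 from replicate 2 correlated between -0.108 and 0.0519 over the 6 pairs of groups. With the replicate block 4 members rose and 4 fell in MDA-MB-231, 3 rose and 11 fell in LM2, 15 were higher and 5 lower between the lines, and 2 and 9 differed. Library totals alone shifted the median of all genes with knockdown in LM2 by -0.129 and the interaction by -0.113, and turned the share of all called genes that rose from 52.9% to 30.9%, and that of the interaction from 54% to 32.7% (42% with upper-quartile factors). Limma on log2(FPKM + 1) gave smaller log2 fold changes for low genes. DESeq2 called 6 members lower for the difference between the effects. The 18 members with 20 counts or fewer over all libraries could not be compared at this depth.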

Other observations

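The FPKM ratio of chains that assemble together differed between libraries. COL4A2 over COL4A1 was 1.487 and 1.395 in the parental (MDA-MB-231) control, 1.792 and 1.928 in parental shTAF7, 1.526 and 1.793 in the LM2 control, and 1.903 and 2.191 in LM2 shTAF7. In each line the ratio was higher in both knockdown libraries than in both controls. COL6A2 over COL6A1 was 0.9548 and 1.021, 1.217 and 1.214, 1.258 and 1.36, and 1.537 and 1.471 in the same order, again higher with knockdown in each line. COL6A1 over COL6A3 was highest in the LM2 control (40.05 and 47.29) and lay between 16.01 and 32.06 in the other libraries. COL5A1 over COL5A2 was 21 to 30 in MDA-MB-231 and 4.7 to 5.703 in LM2. These ratios were computed after the values were seen and were not tested.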
